A study of Mus musculus with 2 samples.

Results

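Microglia are the resident macrophages of the brain, and 9 genes that mark them were followed in mouse forebrain at embryonic day 15.5: Csf1r, C1qa, C1qb, C1qc, Cx3cr1, P2ry12, Tmem119, Trem2 and Aif1. They were taken by symbol from a table of 43346 mouse genes, and all 9 were present. The study sequenced total RNA longer than 200 nucleotides from 1 group, forebrain of B6NCrl embryos of both sexes, with 10 ng of RNA and added spike-ins for each library. Replicate 1 was a pool of 78 embryos and replicate 2 a separate pool of 62. The tissue was healthy and untreated, and no allele other than the strain's own is named. The libraries held 38720511 (replicate 1) and 35103430 (replicate 2) expected counts. Because whole forebrain was pooled, the number of microglia and the RNA in each of them cannot be told apart.

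Microglia descend from yolk sac progenitors and reach the forebrain before most neurons are born. Their survival needs the receptor tyrosine kinase encoded by Csf1r, which has 2 ligands, Csf1 and Il34. They secrete C1q, the recognition protein of the classical complement pathway, which is built from the products of C1qa, C1qb and C1qc. They sense neurons through the fractalkine receptor Cx3cr1 and nucleotides through the ADP receptor P2ry12, and they bind lipids and debris through Trem2, which signals through the adaptor Tyrobp. Macrophages of the meninges, the perivascular space and the choroid plexus share Csf1r, the C1q genes, Trem2 and Aif1, while P2ry12 and Tmem119 are the members used to tell microglia from them.

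The genes lie on 6 chromosomes, and the C1q chains form a cluster on chromosome 4 on the minus strand. By the GENCODE M21 annotation of mm10, C1qb runs from 136880129 to 136886187, C1qc from 136889804 to 136893065 and C1qa from 136895917 to 136898803. Each C1q coding transcript has 3 exons. Trem2 (48346401 to 48354147) and Aif1 (35170991 to 35176068) are both on chromosome 17, P2ry12 is on chromosome 3 (59216272 to 59262871), Tmem119 on chromosome 5 (113793729 to 113800516), Cx3cr1 on chromosome 9 (119901616 to 120069879) and Csf1r on chromosome 18.

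The sequences before the start sites of 3 members are shown because C1qb and C1qc are neighbours that encode chains of 1 protein, and Trem2 is the lowest member for comparison. Each is the RefSeq window on GRCm38.p6 from 250 bases before to 50 after the start, on the gene's own strand. The windows are chr4:136886151-136886450 for C1qb, chr4:136892865-136893164 for C1qc and chr17:48346151-48346450 for Trem2. Capitals mark GAGGAA or its reverse complement TTCCTC, the core bound by the myeloid factor PU.1, the product of Spi1.

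C1qb: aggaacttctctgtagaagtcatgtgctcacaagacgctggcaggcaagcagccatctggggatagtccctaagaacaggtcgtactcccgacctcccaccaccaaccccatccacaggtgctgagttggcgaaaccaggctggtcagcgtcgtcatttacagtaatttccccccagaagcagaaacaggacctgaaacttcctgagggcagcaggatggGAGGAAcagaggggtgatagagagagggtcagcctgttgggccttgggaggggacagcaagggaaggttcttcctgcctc
C1qc: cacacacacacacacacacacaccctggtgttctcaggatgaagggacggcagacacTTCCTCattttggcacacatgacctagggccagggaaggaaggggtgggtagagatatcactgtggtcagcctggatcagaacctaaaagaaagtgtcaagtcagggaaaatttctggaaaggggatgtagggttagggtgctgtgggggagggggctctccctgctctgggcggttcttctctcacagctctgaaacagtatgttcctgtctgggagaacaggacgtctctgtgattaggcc
Trem2: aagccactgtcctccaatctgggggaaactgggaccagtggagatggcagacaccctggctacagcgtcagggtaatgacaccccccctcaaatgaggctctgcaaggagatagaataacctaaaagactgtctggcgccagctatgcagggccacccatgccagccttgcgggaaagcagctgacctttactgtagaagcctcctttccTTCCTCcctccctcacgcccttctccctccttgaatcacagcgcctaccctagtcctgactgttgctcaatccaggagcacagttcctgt

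The match began 30 bases before the RefSeq start in C1qb, 193 before in C1qc and 40 before in Trem2. The GENCODE start of C1qc, at 136893065, lies upstream of its RefSeq start, so the match is closer to the GENCODE start. Windows of 6 of the 9 members were searched, and 4 of these 6 held the core on either strand, Aif1 being the other one. Csf1r was left out of this search. P2ry12 and Cx3cr1 held no match. The P2ry12 window, chr3:59262936-59263235, does not reach the start of the transcript P2ry12-202 at 59220259. That transcript held most of the gene, and its start was not searched. The same core was present in 9289 of 32851 windows of all genes (28.3%), so a match is a common event and describes only these letters.

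All 9 members were expressed, at levels from 3.25 to 25.3 TPM. TPM is a length-corrected share of the transcripts in 1 library. Every member passed 1 TPM in both libraries, a level reached by 34.4% of all mouse genes and by 60.6% of the 21474 protein-coding genes. An exact two-sided sign-flip test over 2 libraries cannot go below p = 0.5, so the values are untested and each difference is given with the SD of the libraries. The labels call the pools biological replicates.

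The 3 complement chains stood highest. C1qb had 25.3 TPM in replicate 1 and 23.3 TPM in replicate 2, from 586 and 495 reads. C1qa had 18.3 and 19.3 TPM (402 and 390 reads), and C1qc had 17.2 and 15.6 TPM (444 and 369 reads). Both libraries gave the order C1qb, C1qa, C1qc by TPM, and the library values of neighbouring chains did not overlap. The deposited bounds of C1qa and C1qc did overlap in replicate 1, from 16.1 to 19.6 and from 15.4 to 18.5 TPM. Without length correction the mean of C1qc was above that of C1qa. This held in replicate 1 (444 against 402 reads), while C1qa stayed above in replicate 2 (390 against 369 reads). The order of these chains thus depends on that correction in replicate 1 and on the mean. The log2 ratio of C1qa over C1qb was -0.37 ± 0.14 (SD, n = 2), and that of C1qc over C1qb was -0.57 ± 0.02. Among protein-coding genes C1qb ranked at position 6023 of 21474 by mean TPM, C1qa at 6894 and C1qc at 7375.

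The receptors all stood below the chains. Csf1r, the receptor for the survival factors, had 11.2 and 11.1 TPM (1151 and 1069 reads), the most reads of any member. P2ry12, the ADP receptor that guides process movement, had 6.85 and 6.09 TPM (327 and 268 reads). Cx3cr1, the fractalkine receptor, had 5.76 and 5.45 TPM (427 and 386 reads). Trem2 was the lowest member, with 3.25 and 3.38 TPM from 96 and 87 reads.

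Of the other members, Tmem119, a membrane protein, had 4.07 and 4.18 TPM (204 and 176 reads). Aif1, which encodes the calcium-binding protein Iba1 used to stain microglia, had 4.76 and 6.54 TPM (68 and 80 reads). Aif1 was the one member whose libraries spanned its neighbours: it overlapped P2ry12 above it and Cx3cr1 below it, so the order of those 3 is not settled. The TPM values of all other neighbours in the order of the means were separated in both libraries, though the deposited bounds of some overlapped.

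**Figure D1:**
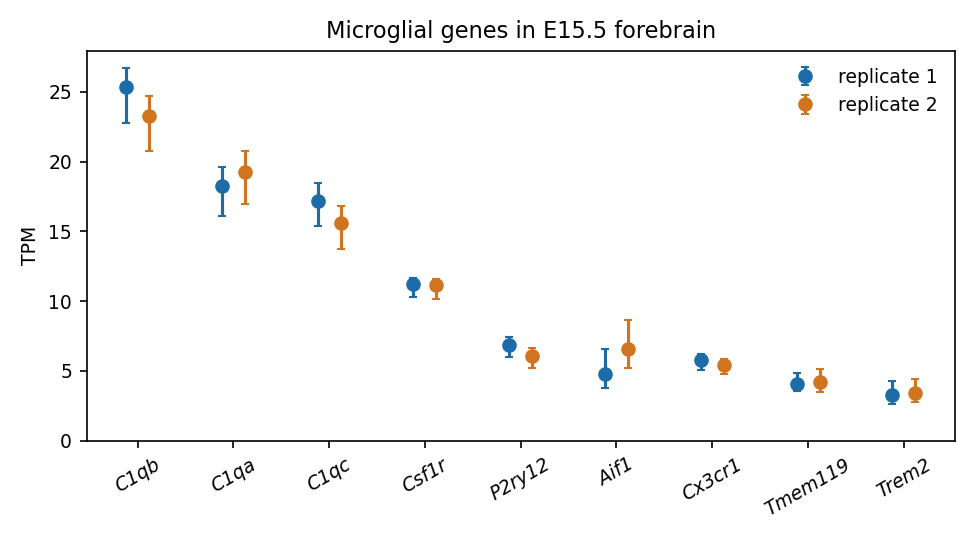
TPM of the 9 genes in each library, ordered by mean, with replicate 1 in blue and replicate 2 in orange; bars are the interval bounds the authors deposited with each value, whose level is not stated. The C1q chains sit highest, Trem2 lowest at 3.25 and 3.38 TPM, and the Aif1 points lie farthest apart for their level.

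Some of these levels depend on how reads were assigned. Exons of Csf1r overlap Hmgxb3 on the opposite strand (12.4 TPM), and exons of P2ry12 overlap Med12l on the opposite strand (2.86 TPM). Exons of Cx3cr1 overlap the antisense gene Gm33858, for which there is no value. No source names the strand setting of the counting, so reads from such partners cannot be told apart. No overlapping gene was annotated for the C1q chains, Tmem119, Trem2 or Aif1.

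The partners of the receptors were measured as well. Of the 12 ligands and signalling partners, 9 passed 1 TPM in both libraries, against 60.6% of all protein-coding genes. Csf1 had 6.53 and 5.36 TPM and Il34 2.11 and 2.84 TPM. The log2 ratio of Il34 over Csf1 was -1.23 ± 0.49 (SD, n = 2), with -1.58 in replicate 1 and -0.89 in replicate 2, so Csf1 was the more abundant ligand in both libraries while the size of the gap varied. It was -2.64 without length correction. Il34 rested on 65 and 71 reads.

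Cx3cl1, the membrane-bound fractalkine that neurons make, had 12.5 and 11.4 TPM. It exceeded its receptor Cx3cr1 by log2 1.08 ± 0.04, about 2.11-fold, a gap far larger than the spread between the libraries. Tyrobp, the adaptor DAP12, had 20.2 and 18.6 TPM and exceeded Trem2 by log2 2.51 ± 0.12, or 5.71-fold; without length correction this was 1.12. Tyrobp also serves other myeloid receptors. Apoe, a lipid carrier that Trem2 binds, had 217 and 194 TPM, and Clu, another lipid carrier, had 64.5 and 44.9 TPM. The kinase Syk, which acts below Tyrobp, had 0.990 and 0.870 TPM, and Plcg2 had 0.740 and 0.710 TPM.

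Transforming growth factor beta is needed for the mature microglial programme. Its ligand gene Tgfb1 had 0.450 and 0.430 TPM, whereas the receptor genes had 38.4 and 34.9 TPM (Tgfbr1) and 5.61 and 5.44 TPM (Tgfbr2). Entpd1, the ectoenzyme CD39 that breaks down extracellular ATP to the ADP and AMP stage, had 7.05 and 6.85 TPM. Most of these genes are also expressed by neurons, progenitors or vessels, so their levels do not belong to microglia alone.

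C1q was far more abundant than the proteases and substrates of its pathway. The 3 chains summed to 60.8 and 58.1 TPM. C1ra, a protease of the C1 complex, had 0.120 and 0.390 TPM, and C1s1, the other one, had 0.280 and 0.390 TPM. Both have near-identical copies that share reads; with the copies added, C1r genes came to 0.180 and 0.390 TPM and C1s genes to 0.430 and 0.510 TPM. C4b had 0.01 and 0.03 TPM, or 0.620 and 1.46 TPM together with its copy C4a. C2 had 1.23 and 0.640 TPM, and its exons overlap Zbtb12 on the opposite strand (8.01 TPM). C3, the central component, had 0.490 and 0.770 TPM from 35 and 34 reads. These downstream components were therefore under 2 TPM in either library.

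Several regulators of complement were higher than those components. Of the 17 other complement genes, 8 passed 1 TPM in both libraries, against 60.6% of all protein-coding genes. Cr1l, which encodes the rodent membrane regulator Crry, had 38.6 and 40.1 TPM. Serping1, the inhibitor of C1r and C1s, had 18.0 and 20.9 TPM, and Masp1, a protease of the lectin pathway, had 18.4 and 19.4 TPM. Csmd1 had 9.72 and 8.80 TPM, Cd59a 4.57 and 4.09 TPM, Cd55 3.37 and 3.11 TPM. Cfb, a protease of the alternative pathway, had 1.78 and 1.52 TPM. The 4 complement receptor genes were at most 1.09 TPM. Itgam and Itgb2, which pair to form complement receptor 3, had 0.900 and 0.800 TPM and 0.720 and 0.530 TPM. C3ar1 had 0.740 and 1.09 TPM and C5ar1 0.650 and 0.820 TPM.

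**Figure D2:**
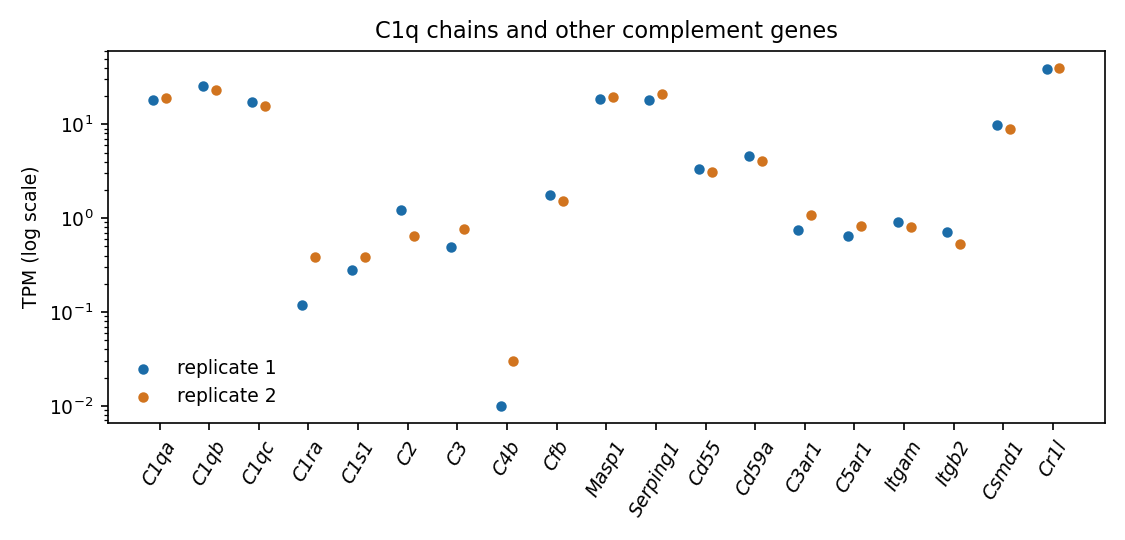
TPM on a log scale of the 3 C1q chains and 16 of the 17 other complement genes, with replicate 1 in blue and replicate 2 in orange. The C1q chains lie between 15.6 and 25.3 TPM, C1ra and C1s1 under 0.4 TPM, and the regulator Cr1l highest at 38.6 and 40.1 TPM.

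Myeloid transcription factors were present at low levels where they are restricted to blood lineages. Spi1, which encodes PU.1, had 2.02 and 2.47 TPM, and its partner Irf8 had 3.47 and 4.39 TPM. Runx1 (0.320 and 0.440 TPM) and Cebpa (0.52 and 0.5 TPM) stayed under 1 TPM. Thus 5 of the 7 passed it, against 60.6% of all protein-coding genes. Sall1, a regulator of microglial identity, had 12.8 and 14.5 TPM, and Mef2c 83.6 and 71.0 TPM. Sall1 is also used by neural progenitors and Mef2c by neurons of the forebrain, so neither level belongs to microglia alone.

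The lists of further homeostatic genes and of genes shared by macrophages reached below the lowest of the 9 members, to means of 0.710 and 0.410 TPM. Of 12 further homeostatic genes, 11 passed 1 TPM in both libraries, against 60.6% of all protein-coding genes. The protease Ctss had 11.5 and 9.81 TPM, Fcrls 9.22 and 8.24 TPM, Olfml3 4.72 and 4.62 TPM and Selplg, the lowest, 0.900 and 0.520 TPM. Of 14 genes shared by macrophages, 9 passed 1 TPM in both libraries, near the share among all protein-coding genes. The highest were Laptm5 (17.7 and 21.6 TPM), the Fc receptor chain Fcer1g (18.3 and 16.2), Lyz2 (13.6 and 15.7) and Lcp1 (10.2 and 9.22). The lowest was Cd14, at 0.410 TPM in each library.

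Genes of the activated and axon tract states of microglia gave a mixed picture. Spp1, which encodes osteopontin, had 7.43 and 5.57 TPM, Lpl 7.80 and 11.9 TPM and Igf1 3.12 and 3.83 TPM. Which cells gave these levels was not tested. Itgax, a marker of those states, had 0.0200 and 0.0600 TPM from 2 and 5 reads. Fabp5 (736 and 772 TPM) is a gene of neural progenitors. In all, 5 of the 9 genes passed 1 TPM in both libraries, near the 60.6% of all protein-coding genes.

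The levels were set beside those of markers of other immune cells that the tissue could hold. Of 10 markers of border macrophages, 7 passed 1 TPM in both libraries, near the share of 60.6% among all protein-coding genes. These markers summed to 51.2 and 60.9 TPM, while the 9 microglial genes summed to 96.7 and 94.9 TPM. Pf4 had 21.7 and 23.97 TPM, Stab1 11.6 and 16.03 TPM, F13a1 8.20 and 9.45 TPM and the mannose receptor Mrc1 3.01 and 3.37 TPM, with Cd163 lowest at 0.180 and 0.220 TPM. Pf4 is also a platelet gene, and exons of Stab1 overlap Nt5dc2 on the opposite strand (185 TPM). The share of the C1q, Csf1r, Trem2 and Aif1 signal that came from border macrophages was not tested.

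The median of log2(TPM + 0.1) over the microglial genes exceeded that of the border macrophage markers by 1.39 ± 0.16 (SD of the 2 library differences), with 1.58 in replicate 1 and 1.35 in replicate 2. This is a 2.62-fold difference. It cannot tell the cell types apart or give their shares, because Csf1r, the C1q genes, Trem2 and Aif1 are shared by both. P2ry12 (6.85 and 6.09 TPM) and Tmem119 (4.07 and 4.18 TPM) lay below Pf4, Stab1 and F13a1. Both lay above the other border macrophage markers. The SD covers the libraries and not the spread between genes. Without length correction the log2 difference was 2.15. Without Pf4 and Stab1, a choice made after the data were seen, it was 2.00. The ranges of the lists overlapped, from 3.32 to 24.3 TPM in the microglial genes and from 0.200 to 22.8 TPM in the border macrophage markers.

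Markers of circulating leukocytes were low. Of 14 such markers, 3 passed 1 TPM in both libraries, against 60.6% of all protein-coding genes. The list summed to 15.0 and 18.1 TPM. Lck, highest at 7.68 and 6.27 TPM, is a T cell kinase that is also expressed in brain. The neutrophil genes S100a8 (3.06 and 6.67 TPM), S100a9 (1.76 and 1.80) and Ngp (0.360 and 1.32) followed. Cd3e, the defining T cell gene, had 0 reads in both libraries, and 3 reads would correspond to 0.0959 TPM in replicate 1 and 0.104 TPM in replicate 2. The microglial median exceeded the leukocyte median by log2 4.26 ± 0.23. The size of that gap depended on the setting: it was 2.59 with a pseudocount of 1, 3.35 by posterior mean TPM, 3.59 over markers with 10 or more reads and 5.19 without length correction.

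Blood elements were present in the tissue. Of 4 platelet markers, 2 passed 1 TPM: Itga2b (3.32 and 3.90 TPM) and Gp1bb (9.31 and 9.60 TPM), whose exons overlap the neuronal gene Sept5 on the same strand (159 TPM). Ppbp had 0.440 and 0.850 TPM and Gp9 0.420 and 0.520 TPM. All 7 erythroid genes passed 1 TPM and summed to 11331 and 10385 TPM. The share of all protein-coding genes that passed 1 TPM was 60.6%. The microglial median was below that of 5 endothelial genes by log2 1.35: the difference was -1.35 ± 0.03, with -1.28 and -1.33 in the libraries. The middle microglial gene was P2ry12 in replicate 1 and by the means, and Aif1 in replicate 2. The value from the means thus lay outside both library values. The 7 neuronal genes summed to 4085 and 3985 TPM.

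**Figure D3:**
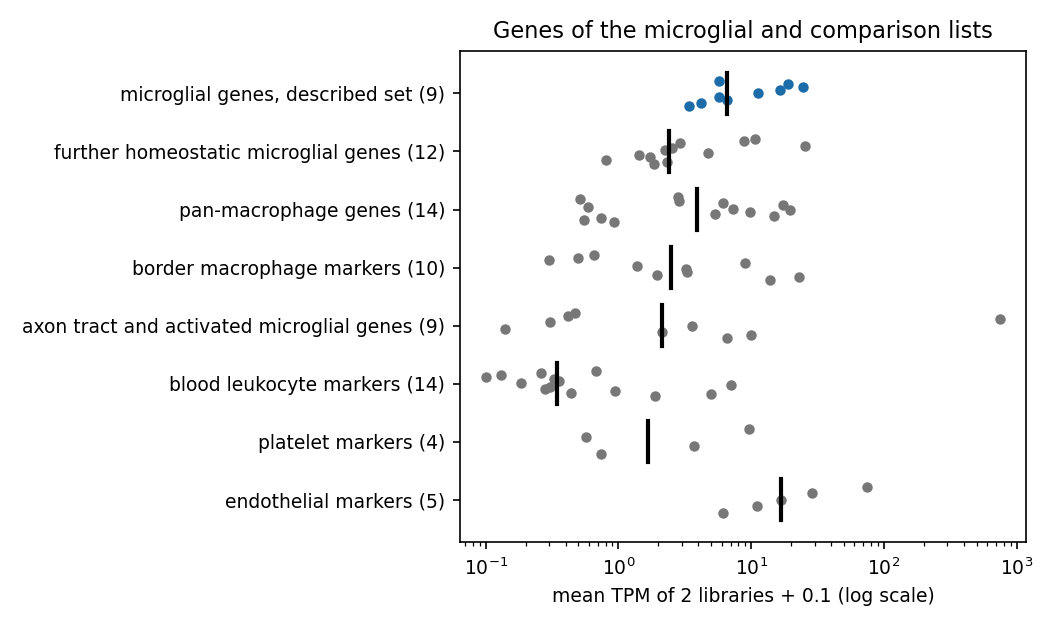
Mean TPM of the 2 libraries plus 0.1, on a log scale, for each gene (points) of the 9 microglial genes (blue, top row) and 7 other lists (grey), with the median as a black bar and the number of genes in brackets. Microglial genes lie within 3.32 to 24.3 TPM, while most leukocyte markers lie under 1 TPM.

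Transcripts of the members were separable to different degrees. The members had 23 annotated transcripts in all, of which 19 received reads in either library. In 4 members the main transcript held at least 90% of the gene in both libraries: C1qa and C1qb have 1 transcript each, C1qc-201 held 99.7 and 99.2% and Tmem119-201 100 and 90.3%. Shares below are the authors' deposited percent values, as maximum-likelihood estimates unless named otherwise.

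Reads of Trem2 were assigned to 2 coding transcripts. Trem2-201 held 79.2% of the gene in replicate 1 and 63.1% in replicate 2, and Trem2-202 held 13.2 and 31.0%. They differ in exon 4, which starts 55 bases earlier in Trem2-202 (chromosome 17, 48351691 to 48351745, plus strand). Exon 1 also starts earlier in Trem2-201, at 48346401 against 48346488. The coding part of exon 5 is 14 bases in Trem2-201 and 25 in Trem2-202. The annotated coding length is 747 bases for Trem2-202 and 681 for Trem2-201. The junction of exon 3 and exon 4 is shown for both from the GENCODE M21 transcripts, 5′ to 3′, with 24 bases on either side and the extra bases in capitals.

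Trem2-202: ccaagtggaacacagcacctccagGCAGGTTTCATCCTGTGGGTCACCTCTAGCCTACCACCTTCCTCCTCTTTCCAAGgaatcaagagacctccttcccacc
Trem2-201: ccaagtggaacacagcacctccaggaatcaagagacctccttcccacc

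The counts behind these shares were small, 96 and 87 reads for the whole gene. The deposited bounds for Trem2-202 ran from 0.0265 to 1.36 TPM in replicate 1 and from 0.358 to 1.92 TPM in replicate 2. These bounds overlap, but their level is not stated, and a difference between the pools in this transcript was not tested. A retained-intron transcript, Trem2-203, held 7.54 and 5.92%.

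Cx3cr1 and Csf1r each had 2 coding transcripts of equal coding length. Cx3cr1-202 held 80.4% in replicate 1 and 58.5% in replicate 2, and Cx3cr1-201 held the rest. Cx3cr1-202 has a shorter second exon and a further short exon far downstream. The deposited bounds of Cx3cr1-202 overlapped, from 3.47 to 5.29 TPM and from 1.85 to 4.14 TPM. Csf1r-202, with the longer last exon, held 75 and 83.6%, and Csf1r-201 held 25 and 16.4%. In P2ry12 the 2 transcripts differ in their first exons, and P2ry12-202 held 84.2 and 80.9%. The annotated lengths of Cx3cr1-201 and P2ry12-201 differ between the files and M21, while the other 21 of the 23 transcripts are equal in length.

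The transcripts of Aif1 could not be resolved. By maximum likelihood, the coding Aif1-203 held 63.7 and 54.1% and the retained-intron Aif1-205 held 29.9 and 45.9%. By posterior mean, Aif1-203 held 23.7 and 20.2%, Aif1-205 26.9 and 39.9%, and Aif1-201, which had no reads by maximum likelihood, 19.1 and 16.96%. The maximum-likelihood level of Aif1-203, 3.03 and 3.54 TPM, lay above its own deposited upper bounds of 2.73 and 3.05 TPM. No other member had an estimate above 0 outside its bounds.

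**Figure D4:**
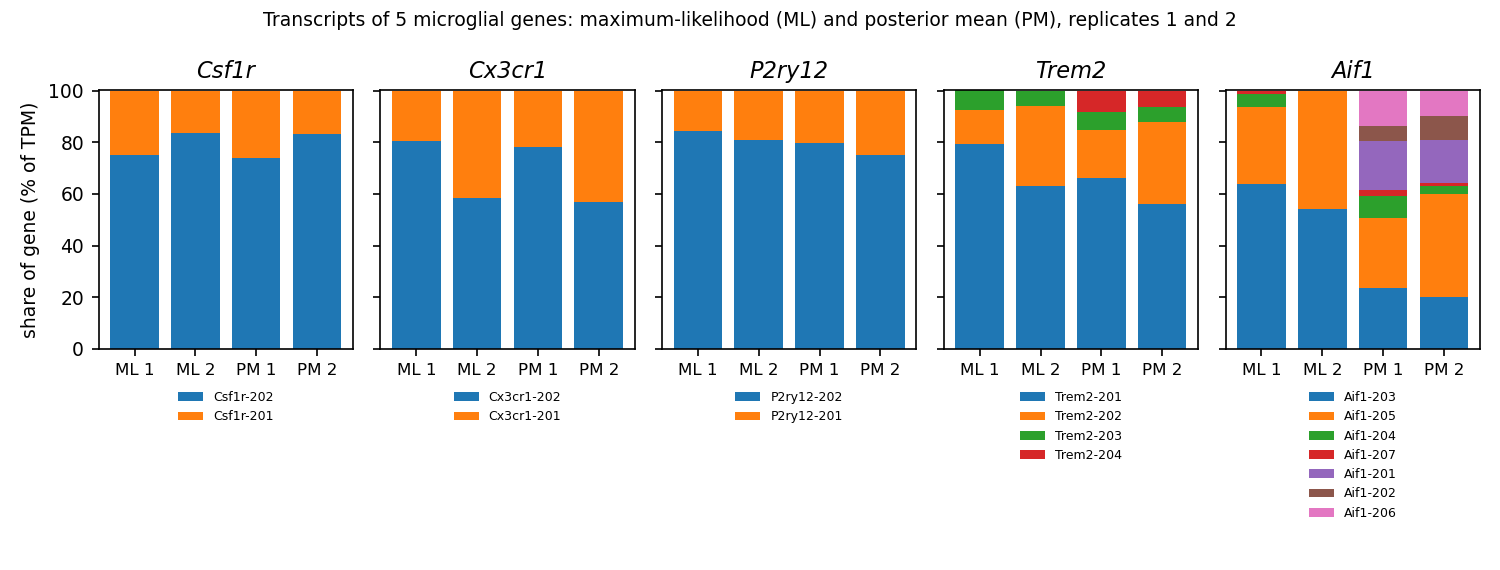
Share of each gene's TPM (%) held by each transcript of Csf1r, Cx3cr1, P2ry12, Trem2 and Aif1, as maximum-likelihood (ML) and posterior mean (PM) values for replicates 1 and 2. The Aif1 bars change most between estimators, with Aif1-203 at 63.7% by maximum likelihood and 23.7% by posterior mean in replicate 1.

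Between the pools the members were close to the rest of the genes. After scaling reads by the TMM factors of edgeR, the median log2 ratio of replicate 1 over replicate 2 was 0.00 over the 9 members, with 5 above 0 and 4 below, and the ratios ran from -0.37 to 0.15. The median over all 19165 genes with at least 10 reads was also 0.00. Past 1.25-fold in either direction lay 1 of the 9 members, against 21.7% of all these genes and 9.19% of the 6063 genes within the members' range of mean TPM. That member was Aif1, whose log2 ratio of reads was -0.37 with a 95% exact binomial interval of -0.86 to 0.11. The interval spans 0, so its difference between the pools was within counting error. On TPM its log2 ratio was -0.46.

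P2ry12 had the highest ratio at 0.15 (-0.09 to 0.38), then C1qc at 0.13 (-0.08 to 0.33) and C1qb at 0.10 (-0.07 to 0.28). C1qa, from the same cluster, was at -0.10 (-0.30 to 0.11). Every member's interval included 0. These intervals cover counting error only. Border macrophage markers had a median ratio of -0.22 and the endothelial genes -0.14. Among the border markers named above, the intervals of Mrc1, Pf4 and Cd163 included 0, and those of F13a1 and Stab1 did not. A difference between the pools in these lists was not tested. Scaled by spike-ins, the median of all genes moved to -0.20 and that of the members to -0.19, with all 9 below 0; this scaling moves every gene by the same amount.

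**Figure D5:**
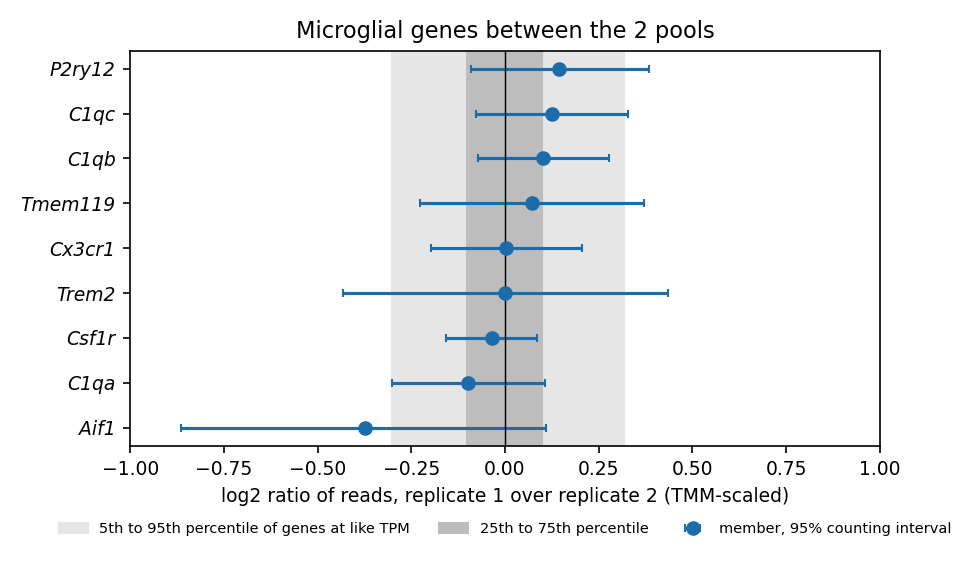
Log2 ratio of TMM-scaled reads, replicate 1 over replicate 2, for the 9 genes (points) with 95% counting intervals (bars); dark and light grey bands are the 25th to 75th and 5th to 95th percentiles of 6063 genes in the same range of TPM. Every bar crosses 0, and the Aif1 point at -0.37 lies lowest.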

How the data were processed

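Total RNA of 2 pools of mouse forebrain was measured, with 1 gene table and 1 transcript table for each library. The assembly was mm10 with GENCODE M4, per the deposited notes. Aligner, quantifier and strand setting: not given in the sources used here. Deposited expected counts are estimates of reads that can be fractional. The deposited TPM values scale them by effective length, spike-ins included, as maximum-likelihood estimates and posterior means. The deposited FPKM values scale per kilobase and library size. Transcript shares within a gene are the authors' percent values. The interval bounds deposited beside TPM have no stated level.

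Symbols were joined by identifier without version, and all 127 listed genes matched. Gene spans, exons and transcript names come from GENCODE M21, whose models differ from M4, and promoter windows from RefSeq on GRCm38.p6. The 9 members, the 13 lists (the members, partners, complement, transcription factors, further homeostatic, macrophage, border macrophage, activated, leukocyte, platelet, erythroid, endothelial and neuronal genes) and the alternatives were chosen with earlier results of these data known; the searched motif was chosen after the windows were seen. All genes of the first 4 lists could be named, and of the others the 4 highest and the lowest; 3 genes that the rule names are not reported here.

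Expected counts were rounded, scaled by TMM in edgeR 4.0.16 (R 4.3.3) over genes with 10 or more summed reads, and 0.5 reads were added before log2 ratios. List levels are medians of log2(TPM + 0.1) of the mean of the libraries. A 0 is given a limit of 3 reads. Alternatives used DESeq2 1.42.0 size factors, spike-in scaling, FPKM, posterior means, other pseudocounts and single libraries. The scaling was tested on simulated data. Tables were handled with pandas 2.3.3 in Python 3.11.15, intervals computed with scipy 1.17.1 and figures drawn with matplotlib 3.10.9.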

Additional observations from a re-analysis of the deposited data

How the results depend on the processing

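No difference or ratio changed sign under the alternatives that were run, apart from the members' ratio between pools, which is near 0. The order of C1qa and C1qc did turn on the mean of the libraries and in replicate 1, but not in replicate 2. Without length correction, C1qa over C1qb was -0.44, below C1qc over C1qb. The main transcript of Aif1 also changed, from Aif1-203 by maximum likelihood to Aif1-205 by posterior mean. All 9 members passed 1 TPM by posterior mean TPM, as FPKM at 1 and in either library alone, and 6 of 9 passed a level of 5 TPM. With a pseudocount of 1 the log2 differences were 1.12 (border macrophage), 2.59 (leukocyte) and -1.24 (endothelial), and the pair ratios were -0.54 (C1qc over C1qb), 2.24 (Tyrobp over Trem2) and 0.97 (Cx3cl1 over Cx3cr1). With a pseudocount of 0.01 the leukocyte difference was 4.69. Without length correction the values were 2.15 (border macrophage), 5.19 (leukocyte), -1.42 (endothelial), -0.41 (C1qc over C1qb), 1.12 (Tyrobp over Trem2) and -2.64 (Il34 over Csf1). As the mean over members they were 1.81 (border macrophage) and -1.13 (endothelial). Posterior mean TPM gave 3.35 for leukocytes and 1.14 for Cx3cl1 over Cx3cr1, and leukocyte markers with 10 or more reads gave 3.59. Leaving out Pf4 and Stab1, chosen after the data were seen, gave 2.00 for border macrophages. Spike-in scaling gave -0.19 for the members' ratio. The median main transcript share, 82.5%, was 78.4% by posterior mean. In single libraries the differences ranged from 1.35 to 1.58 (border macrophage) and from -1.33 to -1.28 (endothelial), and the median share from 83.6 to 84.2%. For these the cause was not tested. No paired analysis was possible because there is 1 group. Among the members, Aif1 and Trem2 rested on under 100 reads a library.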
